A study of Mus musculus with 9 samples.

Results

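The genes described here make, move and burn ketone bodies and lactate. The set holds 8 mouse genes: Bdh1, Bdh2, Oxct1, Acat1, Slc16a1, Slc16a3, Slc16a7 and Bsg. A gene was taken as every row of the expression matrix whose RefSeq accessions map to its symbol, and 7 of the 8 had a row, 1 row each, among 17753 genes in all. Acat1 is not analysed here. Levels were compared among brown fat, white fat and soleus muscle, with 3 RNA-seq libraries of each. All tissues came from wild-type C57BL/6J males aged 3 months, with no treatment or allele named in the labels. Brown fat is the heat-producing depot, white fat the energy store and the soleus a slow, oxidative postural muscle. The depot of the white fat is not given in the sources used here. The labels give 3 mice but do not say which libraries share a mouse, so p-values measure only the spread between these libraries.

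Ketone bodies are acids that the liver makes from fatty acids and other tissues burn. In mitochondria the dehydrogenase BDH1 interconverts beta-hydroxybutyrate and acetoacetate. OXCT1, the rate-limiting enzyme of ketone body use, then moves coenzyme A from succinyl-CoA onto acetoacetate, which a thiolase splits to acetyl-CoA. Ketone bodies, lactate and pyruvate cross the cell membrane together with a proton on the same monocarboxylate carriers: MCT1, made from Slc16a1, MCT4, made from Slc16a3, and MCT2, made from Slc16a7. MCT2 has a high affinity for its substrates, whereas MCT4 is known for lactate export from glycolytic cells. Basigin, the product of Bsg, is the membrane glycoprotein that brings MCT1 and MCT4 to the cell surface.

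Start-site windows are shown for genes with the largest tissue differences on the log scale of the tests below, where a window was at hand. They come from RefSeq on GRCm38.p6, not the mm9 build of the expression values, and run from 250 bases before to 50 bases after the start, on the plus strand. Windows were matched for 5 of the 7 genes, and Slc16a7 and Bsg are named only. Capitals mark the motif matches found in a search of both strands for AAGGTCA (the core bound by estrogen-related receptors), CACGTG (an E box), TGACGTCA (a cAMP response element) and GGGCGG (a GC box).
Slc16a1, chr3:104638414-104638713: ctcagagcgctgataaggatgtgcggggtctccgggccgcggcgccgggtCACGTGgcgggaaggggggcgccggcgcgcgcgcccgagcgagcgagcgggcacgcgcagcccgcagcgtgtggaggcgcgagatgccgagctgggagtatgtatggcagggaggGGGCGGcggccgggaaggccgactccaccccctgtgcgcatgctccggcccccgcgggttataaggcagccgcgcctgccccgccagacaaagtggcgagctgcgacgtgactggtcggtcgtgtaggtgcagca
Slc16a3, chr11:120948817-120949116: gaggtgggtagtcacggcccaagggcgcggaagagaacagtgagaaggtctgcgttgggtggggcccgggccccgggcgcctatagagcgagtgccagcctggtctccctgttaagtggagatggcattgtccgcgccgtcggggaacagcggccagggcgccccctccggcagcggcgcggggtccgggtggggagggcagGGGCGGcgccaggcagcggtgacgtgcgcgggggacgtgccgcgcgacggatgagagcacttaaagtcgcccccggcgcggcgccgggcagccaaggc
Bdh1, first start, chr16:31422047-31422346: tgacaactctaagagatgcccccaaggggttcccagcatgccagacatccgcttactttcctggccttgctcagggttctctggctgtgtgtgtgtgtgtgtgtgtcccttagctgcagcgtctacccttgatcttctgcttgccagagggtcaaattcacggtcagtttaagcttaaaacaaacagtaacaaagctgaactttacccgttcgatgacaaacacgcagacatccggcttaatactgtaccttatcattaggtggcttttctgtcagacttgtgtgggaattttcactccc
Bdh1, second start, chr16:31428503-31428802: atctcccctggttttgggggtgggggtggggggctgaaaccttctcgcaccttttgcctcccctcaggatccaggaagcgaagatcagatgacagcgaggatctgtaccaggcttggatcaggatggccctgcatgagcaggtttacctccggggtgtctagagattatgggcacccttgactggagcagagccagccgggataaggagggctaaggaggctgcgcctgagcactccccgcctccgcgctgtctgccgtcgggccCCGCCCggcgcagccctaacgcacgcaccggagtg
The Slc16a1 window held an E box at bases 51 to 56 and a GC box at bases 166 to 171, counted from its 5′ end. The Slc16a3 window held a GC box at bases 203 to 208, and the second Bdh1 window held one at bases 266 to 271 on the minus strand. Of the 32851 windows in the table, 7.2% held an E box, 35.7% a GC box, 4.7% the receptor core and 1.8% the cAMP element. The last 2 motifs were in no window of these genes, and the first Bdh1 window, the Bdh2 window and the Oxct1 window held none of the 4. The windows differed in base composition: G and C made up 73.7% of the Slc16a1 window, 73.3% of the Slc16a3 window, 63.7% of the second Bdh1 window and 48.3% of the first, against a median of 52.7% over all windows. A match is a run of letters only, and no binding was measured.

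Levels are in FPKM, a fragment count corrected for transcript length and library size, so levels of different genes can be compared. Summed FPKM ran from 214066 in white fat library 2 to 353399 in soleus library 2, and the top 20 genes took up 18.7% to 19.0% of a brown fat library, 14.8% to 16.1% of a white fat library and 27.8% to 29.3% of a soleus library. Read totals are unknown, but low values gave relative depths of 1 to 3.58. Tests used limma on log2(FPKM + 1), in which fold changes of genes with low values are understated, and a call is a two-sided adjusted p below 0.05. The error after a fold change is the standard error, and that after a level or share is the SD over 3 libraries. The tissue labels fitted their markers. Summed brown adipocyte markers (Ucp1, Cidea, Dio2, Ppargc1a, Otop1) lay at 5740 to 6581 FPKM in brown fat, with 6.34 to 64.6 in white fat and 17.2 to 25.6 in soleus. Summed white adipocyte markers (Lep, Retn, Agt, Nnat) lay at 106.9 to 140.7 in brown fat, with 3276 to 4642 in white fat and 20.3 to 117.5 in soleus. The muscle markers measured here, Tnnc2 and Myl2 of 6 listed, summed to 7.24, 56.7 and 27.1 FPKM in brown fat libraries 1, 2 and 3, to 0.400 to 1.13 in white fat and to 17950 to 22320 in soleus.

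Among the enzymes, Bdh1 split muscle from fat. It stood at 0.0164, 0.00955 and 0.0201 FPKM in the 3 brown fat libraries and at 0.0877, 0.0608 and 0.0595 FPKM in the white fat libraries. Soleus had 55.1, 81.1 and 71.6 FPKM. Both fats lay below every soleus library by orders of magnitude. On the log2(FPKM + 1) scale Bdh1 was lower by 6.09 ± 0.12 (SE) in brown fat than in soleus (log2 fold change -6.09, adjusted p = 8.4e-12) and lower in white fat than in soleus (log2 fold change -6.02 ± 0.12, adjusted p = 1.0e-11). Bdh1 reached 1 FPKM only in soleus and so entered the test through the tissue where it is high. Over the 22 other settings the fold change ran from -9.21 to -3.87 in brown fat against soleus and from -8.66 to -3.86 in white fat against soleus.

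Between the fats, Bdh1 averaged 0.0154 ± 0.00537 FPKM in brown fat and 0.0693 ± 0.0159 FPKM in white fat (SD, n = 3 each). The 3 brown fat libraries all lay below the 3 white fat libraries. With a pseudocount of 1 the difference was near 0 and not called (log2 fold change -0.07, 95% interval -0.33 to 0.19, adjusted p = 0.59). It was called lower in brown fat with a pseudocount of 0.1 (-0.55, adjusted p = 0.0097) and after rescaling to TPM (-0.32, adjusted p = 0.026). Rescaling to TPM also raised the values in each library, so a pseudocount of 1 weighed less there. The parts of scaling and pseudocount were not told apart. Once multiplied by relative depth, the 6 values were whole multiples, within 0.07, of the smallest. They came to 3, 1 and 2 steps in brown fat and 8, 4 and 14 steps in white fat, so few steps lie behind each value.

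Oxct1 was abundant in all 9 libraries. Brown fat had 123.6, 114.2 and 119.2 FPKM, white fat had 96.2, 92.8 and 82.1 FPKM, and soleus had 164.2, 195.2 and 218.8 FPKM. The libraries of the 3 tissues did not overlap, with soleus highest, brown fat next and white fat lowest. Oxct1 was lower in brown fat than in soleus (log2 fold change -0.68 ± 0.11, adjusted p = 1.9e-04) and lower in white fat than in soleus (-1.08 ± 0.11, adjusted p = 4.0e-06), under each of the 22 other settings tried as well. It was 1.32-fold higher in brown fat than in white fat (log2 fold change 0.40 ± 0.11, adjusted p = 0.0082), but after rescaling to TPM the difference was -0.19 (adjusted p = 0.099) and after quantile normalization it was -0.04 (adjusted p = 0.73). An opposite-strand transcript, BC037032, covers 13.2% of the exonic bases of Oxct1, and antisense Gm15743 covers 14.6% of those of Bdh1. Use of strand in the counting is not stated, so reads from these overlaps cannot be told apart.

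Bdh2 encodes a cytosolic relative of BDH1 with a less settled role in ketone body use. Its levels were low, at 0.0830, 0.281 and 0.212 FPKM in brown fat, 1.94, 1.396 and 2.12 FPKM in white fat and 1.17, 1.36 and 0.689 FPKM in soleus. No pair of tissues overlapped, and white fat was highest. Bdh2 reached 1 FPKM in all 3 white fat libraries, in 2 of soleus and in none of brown fat, and so entered the test through the tissues where it is higher. Bdh2 was lower in brown fat than in white fat (log2 fold change -1.24 ± 0.14, adjusted p = 1.2e-05) and lower in brown fat than in soleus (-0.79 ± 0.14, adjusted p = 3.1e-04), with -2.76 to -0.39 and -2.02 to -0.22 over the 21 other settings that could test it. It was higher in white fat than in soleus (0.45 ± 0.14, adjusted p = 0.010), a call that was lost under 3 other scalings (0.06 to 0.29, adjusted p = 0.086 to 0.70). Bdh1 made up 9.49% ± 6.65 of the summed FPKM of Bdh1 and Bdh2 in brown fat, with 3.74% ± 0.882 in white fat and 98.4% ± 0.566 in soleus (SD, n = 3 each). The fats did not differ beyond their spread in this share (exact permutation p = 0.3, adjusted p = 0.36). Their difference was 5.7 percentage points, and 2.2 without brown fat library 1. In bulk tissue, fewer cells of a type and less RNA per cell cannot be told apart.

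**Figure D1:**
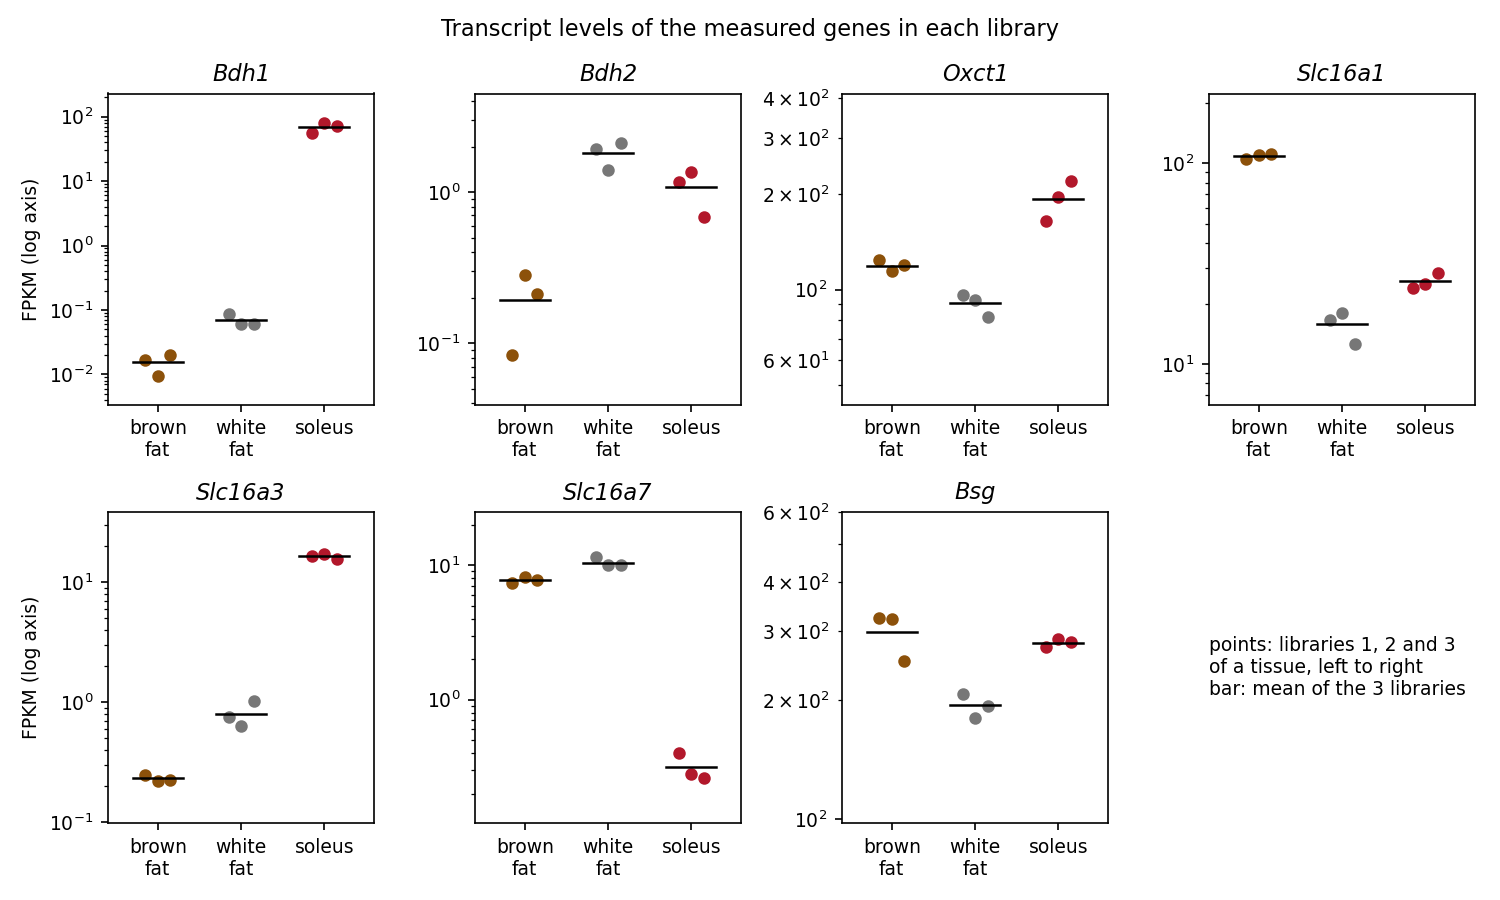
FPKM of each measured gene (log axis, each panel with its own range) in the 3 libraries of brown fat, white fat and soleus; points are libraries and bars are means. Bdh1 and Slc16a3 stand high in soleus, Slc16a1 in brown fat and Slc16a7 in both fats. The libraries of brown fat and soleus overlap for Bsg.

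The 3 carriers had 3 different patterns. Slc16a1 stood at 105.0, 110.3 and 111.0 FPKM in brown fat, at 16.6, 18.0 and 12.6 FPKM in white fat and at 24.0, 24.9 and 28.5 FPKM in soleus. Every brown fat library lay far above every other library. Its level was 6.91-fold higher in brown fat than in white fat (log2 fold change 2.73 ± 0.12, adjusted p = 9.5e-09) and 4.22-fold higher in brown fat than in soleus (2.04 ± 0.12, adjusted p = 4.5e-08). Over the 22 other settings these log2 fold changes ran from 2.20 to 2.87 and from 1.64 to 2.11. Of the markers of other cells, endothelial ones (Pecam1, Cdh5, Kdr) summed to 65.7 to 68.1 FPKM in brown fat, 27.8 to 47.4 FPKM in white fat and 30.0 to 32.9 FPKM in soleus, and so were also highest in brown fat. The erythroid markers Alas2 and Slc4a1, 2 of 6 listed, summed to 4.59 to 7.76 FPKM in brown fat, 6.29 to 11.6 FPKM in white fat and 1.33 to 2.39 FPKM in soleus. The part of either cell type in the Slc16a1 level was not tested. White fat lay below soleus (-0.69 ± 0.12, adjusted p = 2.7e-04), a difference of -0.16 after rescaling to TPM (adjusted p = 0.25).

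Slc16a3 was high in soleus and low in both fats. Brown fat had 0.248, 0.219 and 0.225 FPKM, white fat had 0.747, 0.629 and 1.03 FPKM, and soleus had 16.7, 17.2 and 15.7 FPKM. Soleus stood apart from both fats, and the fats did not overlap with each other. Slc16a3 was lower in brown fat than in soleus (log2 fold change -3.83 ± 0.09, adjusted p = 2.5e-11), lower in white fat than in soleus (-3.29 ± 0.09, adjusted p = 9.5e-11) and lower in brown fat than in white fat (-0.54 ± 0.09, adjusted p = 1.8e-04). All 3 calls held under the 22 other settings, with ranges of -5.65 to -2.04, -4.23 to -1.89 and -1.43 to -0.15 in the same order. Slc16a3 reached 1 FPKM in all 3 soleus libraries, in 1 of white fat and in none of brown fat, and so entered the test through soleus, where it is high. The summed macrophage markers Adgre1, Csf1r and C1qb, 3 of 5 listed, were 17.8, 22.0 and 17.8 FPKM in brown fat, 193.2, 181.0 and 226.9 FPKM in white fat and 11.9 to 17.3 FPKM in soleus. White fat library 3 was highest in both these markers and Slc16a3, and library 2 lowest in both. In brown fat, library 2 was highest in these markers but lowest in Slc16a3. The part of macrophage RNA in the white fat level of Slc16a3 was not tested.

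Slc16a7 was low in soleus and higher in both fats. It stood at 7.44, 8.13 and 7.71 FPKM in brown fat, at 11.5, 9.96 and 9.99 FPKM in white fat and at 0.402, 0.280 and 0.262 FPKM in soleus. No tissues overlapped. The level was 24.7-fold higher in brown fat than in soleus (log2 fold change 2.74 ± 0.08, adjusted p = 1.5e-10) and 33.3-fold higher in white fat than in soleus (3.12 ± 0.08, adjusted p = 6.7e-11). Brown fat was lower than white fat (-0.39 ± 0.08, adjusted p = 0.0011). The other settings gave 1.26 to 4.26, 1.54 to 4.68 and -0.99 to -0.28 for these comparisons in turn. Slc16a7 reached 1 FPKM in no soleus library and entered the test through the fats. The general adipocyte markers Adipoq and Cidec summed to 122.3, 45.0 and 18.4 FPKM in soleus libraries 1, 2 and 3, against 1429 to 1733 FPKM in brown fat and 4171 to 4671 FPKM in white fat. The 3 soleus libraries fell in the same order for Slc16a7, and the part of adipocyte RNA in its soleus level was not tested.

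Together the carriers summed to 116.8 ± 3.53 FPKM in brown fat, 27.0 ± 2.96 FPKM in white fat and 42.6 ± 1.71 FPKM in soleus (SD, n = 3 each). Slc16a1 made up 93.2% ± 0.184 of that sum in brown fat, with 58.0% ± 4.86 in white fat and 60.4% ± 3.21 in soleus. White fat and soleus thus had like shares of Slc16a1 but differed in the rest. Slc16a7 made up 6.64% ± 0.189 in brown fat, with 39.0% ± 3.84 in white fat and 0.743% ± 0.207 in soleus. Slc16a3 made up 0.198% ± 0.0194 in brown fat, with 3.05% ± 1.15 in white fat and 38.9% ± 3.08 in soleus. Within-library shares and ratios were compared by 12 two-sided exact permutation tests, in which 3 libraries against 3 cannot give a p under 0.1. For the Slc16a1 share, brown fat against white fat and brown fat against soleus both gave that smallest p (exact p = 0.1, adjusted p = 0.133), and white fat against soleus gave an exact p of 0.4 (adjusted p = 0.4).

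**Figure D2:**
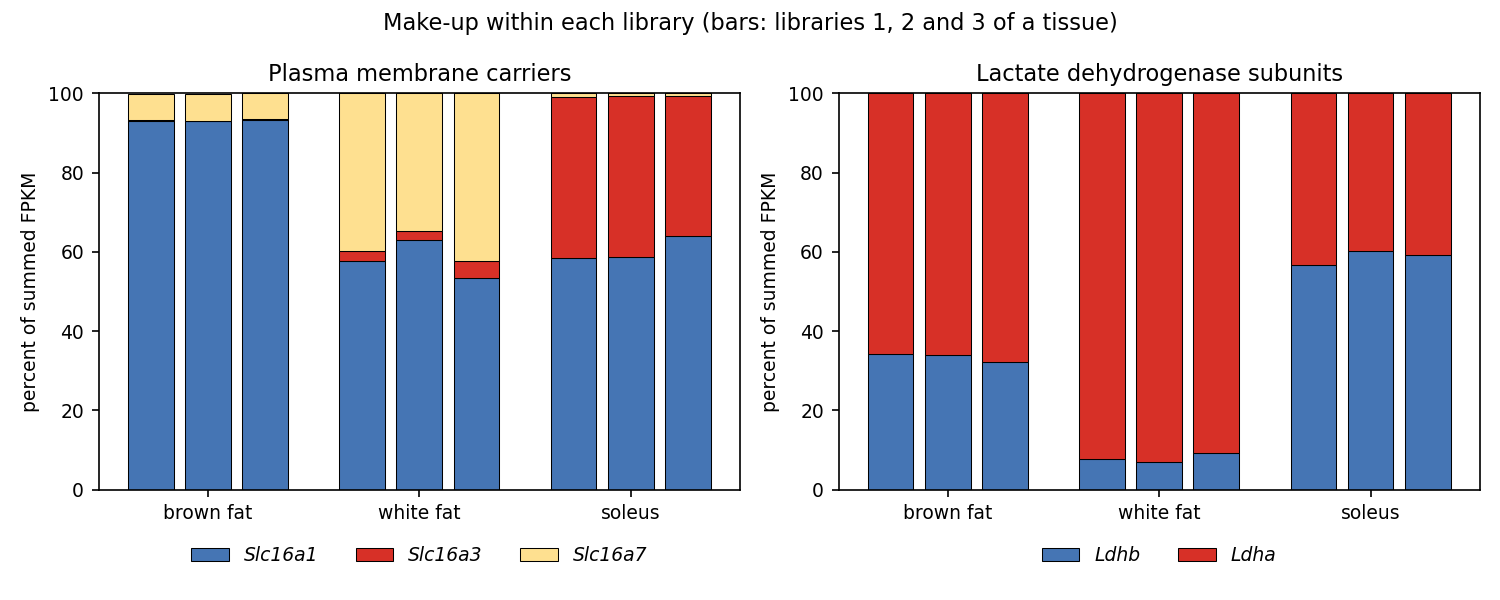
Percent of summed FPKM in each library, for the carriers Slc16a1, Slc16a3 and Slc16a7 (left) and the lactate dehydrogenase subunits Ldhb and Ldha (right); each bar is 1 library. Slc16a1 fills 93.2% of the carrier bar in brown fat, Slc16a7 takes 39.0% in white fat and Slc16a3 takes 38.9% in soleus, on average.

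Bsg, the partner of MCT1 and MCT4, had the highest level of the 7 genes in each tissue. Brown fat had 324.6, 321.2 and 251.9 FPKM, white fat had 208.3, 181.0 and 194.0 FPKM, and soleus had 273.0, 286.0 and 281.3 FPKM. Brown fat library 3 lay below all soleus libraries and the other 2 lay above them. That was the only overlap among the 21 pairs of gene and tissue comparison, a count not made over all genes. Brown fat and soleus did not differ beyond their spread (log2 fold change 0.09, 95% interval -0.16 to 0.33, adjusted p = 0.50), though with upper quartile and median of ratios scaling the difference was -0.29 and -0.32 (adjusted p = 0.019 and 0.018). Brown fat was higher than white fat (0.61 ± 0.11, adjusted p = 5.3e-04), with 0.03 after rescaling to TPM (adjusted p = 0.81) and -0.24 after quantile normalization (adjusted p = 0.019). White fat was lower than soleus (-0.53 ± 0.11, adjusted p = 0.0011), with 0.03 under TPM (adjusted p = 0.78) and 0.14 under quantile normalization (adjusted p = 0.12). Directions for Bsg therefore turned with the scaling in all 3 comparisons.

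The ratio of Bsg to the 3 carriers is the same whatever single factor scales a library. Its log2 value was 1.35 ± 0.235 in brown fat, with 2.85 ± 0.190 in white fat and 2.72 ± 0.0473 in soleus (SD, n = 3 each). Brown fat had less Bsg per unit of carrier RNA than either other tissue, with no overlap of libraries (exact permutation p = 0.1 for both, adjusted p = 0.133, the smallest this design can give). White fat and soleus overlapped (exact permutation p = 0.4, adjusted p = 0.4). Their difference was 0.13 on the log2 scale, and 1.03 after quantile normalization. The carrier sum counts Slc16a7, although Bsg is described above as the partner of MCT1 and MCT4. Slc16a7 made up 39.0% of that sum in white fat and 0.743% in soleus, and a ratio without it was not run.

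Over the set, brown fat against white fat gave 3 genes higher, 3 lower and 1 not called. Among all 9913 genes tested, 38.0% were called higher and 34.8% lower in that comparison. Brown fat against soleus gave 2 higher, 4 lower and 1 not called, against 52.9% of all genes higher and 25.6% lower. White fat against soleus gave 2 higher and 5 lower, against 54.5% of all genes higher and 29.7% lower. With most genes called in each comparison, that a gene of the set was called says little by itself, and the sizes above carry the description. The split of all calls moved with the scaling: calls in brown fat against white fat were 52.2% higher and 22.6% higher after TPM rescaling, those in brown fat against soleus were 67.4% higher and 49.3% higher under median of ratios, and those in white fat against soleus were 64.7%, 78.8% under TPM and 48.7% under median of ratios. Over all genes tested, fold changes had a log2 median of 0.03, 0.29 and 0.35 in these comparisons in turn, and under TPM it was -0.50, 0.32 and 0.93. Under median of ratios it was 0.08, -0.01 and -0.02. The differences in Oxct1, Bsg, Slc16a3 and Slc16a7 between the fats were near the size of these shifts. So were those in Slc16a1, Bsg, Bdh2 and Oxct1 between white fat and soleus. The calls of Slc16a3 and Slc16a7 between the fats, and of Oxct1 in white fat against soleus, held under the 22 other settings.

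**Figure D3:**
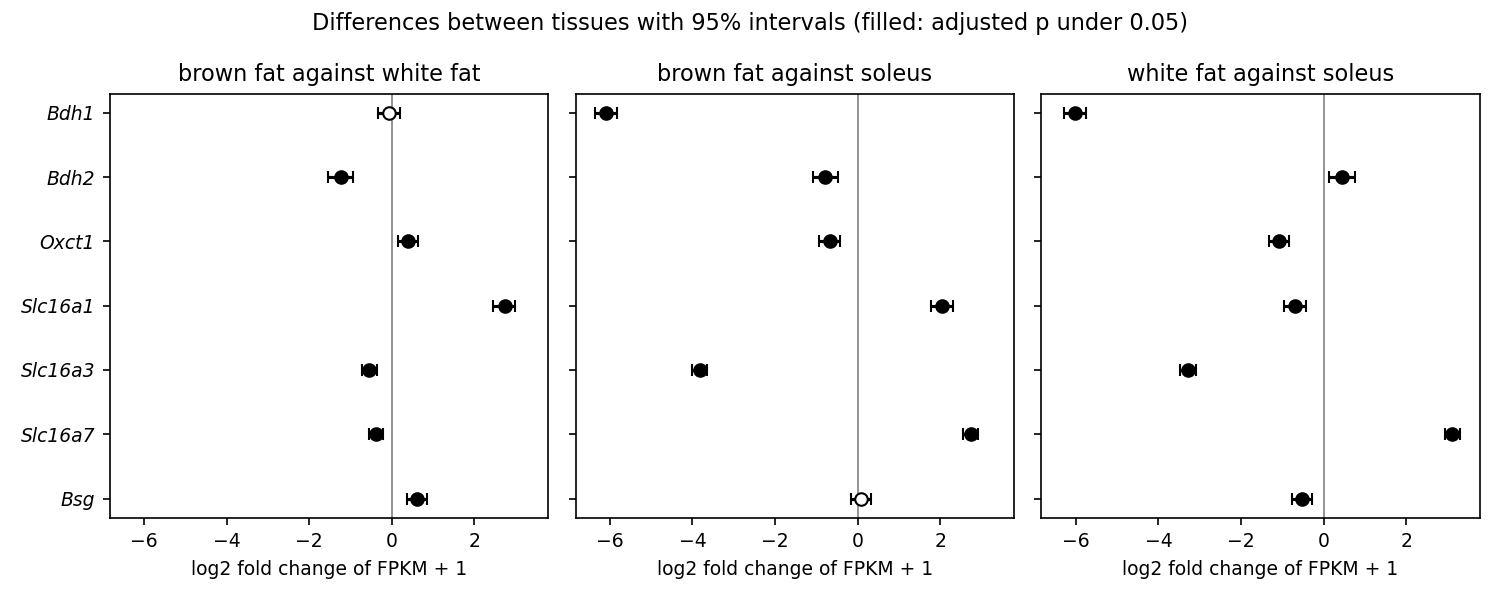
Log2 fold change of FPKM + 1 with 95% interval for the 7 genes in each comparison; filled points have a limma adjusted p under 0.05. Bdh1 at -6.09 and -6.02 and Slc16a3 at -3.83 and -3.29 lie far left against soleus, Slc16a7 at 2.74 and 3.12 lies right, and the open points are Bdh1 between the fats and Bsg in brown fat against soleus.

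**Figure D4:**
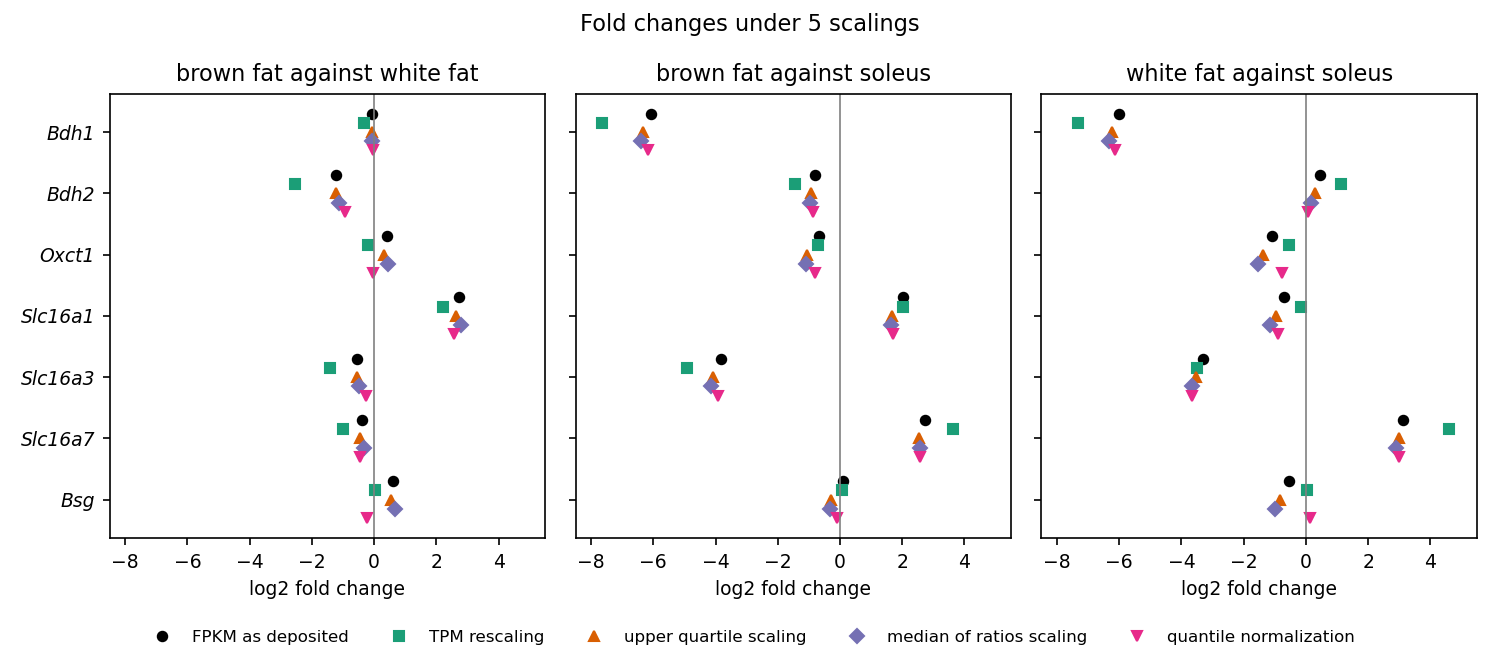
Log2 fold change of the 7 genes under the deposited FPKM and 4 other scalings, 1 panel per comparison. Points for Slc16a1 in brown fat and for Bdh1, Slc16a3 and Slc16a7 against soleus stay on 1 side of 0, whereas those of Bsg fall on both sides in all 3 comparisons and those of Oxct1 do so between the fats.

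Lactate dehydrogenase, which interconverts pyruvate and the lactate these carriers move, showed its own tissue pattern. Ldhb encodes the heart-type subunit, known for favouring lactate use, and Ldha the muscle-type subunit. Ldhb stood at 387.8, 402.3 and 379.6 FPKM in brown fat, at 34.3, 26.3 and 30.2 FPKM in white fat and at 569.4, 720.9 and 654.5 FPKM in soleus. White fat was the low tissue and no libraries overlapped. Ldhb was higher in brown fat than in white fat (log2 fold change 3.65 ± 0.12, adjusted p = 1.5e-09), lower in brown fat than in soleus (-0.73 ± 0.12, adjusted p = 1.7e-04) and lower in white fat than in soleus (-4.38 ± 0.12, adjusted p = 1.1e-10). Ldha had 747.4, 785.5 and 798.9 FPKM in brown fat, 410.7, 346.9 and 298.2 FPKM in white fat and 435.7, 476.8 and 450.6 FPKM in soleus. Brown fat was higher than white fat (1.15 ± 0.12, adjusted p = 7.4e-06; under quantile normalization the call was lost) and higher than soleus (0.77 ± 0.12, adjusted p = 1.4e-04). White fat was lower than soleus (-0.38 ± 0.12, adjusted p = 0.013), a call lost without white fat library 3 (-0.27, adjusted p = 0.062) and under TPM (0.18, adjusted p = 0.11), and turned round under quantile normalization (0.46, adjusted p = 0.0010). Ldha has 2 named pseudogenes, so its level is uncertain.

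As a share of Ldha and Ldhb, Ldhb made up 33.4% ± 1.05 in brown fat, with 7.98% ± 1.10 in white fat and 58.7% ± 1.83 in soleus (SD, n = 3 each). Each pair of tissues was apart in all libraries (exact permutation p = 0.1, adjusted p = 0.133). The list of lactate and pyruvate conversion had 6 genes, of which 3 were tested. All 3 were higher in brown fat than in white fat, 2 were higher and 1 lower in brown fat than in soleus, and 3 were lower in white fat than in soleus, with medians of 2.57, 0.77 and -0.58 against 0.03, 0.29 and 0.35 for all genes. All-gene shares were 38.0% higher, 52.9% higher and 25.6% lower, and 29.7% lower in turn. Ldhd, the mitochondrial D-lactate dehydrogenase, averaged 69.8 ± 3.71 FPKM in brown fat, 10.9 ± 0.767 FPKM in white fat and 16.8 ± 0.258 FPKM in soleus. It was higher in brown fat than in soleus (1.99 ± 0.07, adjusted p = 1.0e-09). The Ldhd call in white fat against soleus (-0.58 ± 0.07, adjusted p = 2.1e-05) was lost after TPM rescaling (-0.06, adjusted p = 0.41).

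Genes that make ketone bodies or use acetoacetate outside mitochondria were led by Aacs. Its enzyme, acetoacetyl-CoA synthetase, activates acetoacetate in the cytosol for lipid synthesis. Aacs stood at 105.2, 116.0 and 135.5 FPKM in brown fat, at 93.7, 80.8 and 78.3 FPKM in white fat and at 2.74, 1.93 and 1.26 FPKM in soleus. Both fats were far above soleus (log2 fold change 5.35 ± 0.17, adjusted p = 2.7e-10 for brown fat, and 4.87 ± 0.17, adjusted p = 6.1e-10 for white fat). The soleus values fell in the order of the adipocyte markers there, whose part was not tested. The difference between the fats (0.49 ± 0.17, adjusted p = 0.021) changed call or sign under 7 of 22 settings, from -0.10 to 0.57, among them without brown fat library 3 and without white fat library 2 or 3 (0.39 to 0.46, adjusted p = 0.055 to 0.085).

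Acat2, the cytosolic acetoacetyl-CoA thiolase, averaged 56.8 ± 3.12 FPKM in brown fat, 14.1 ± 0.469 FPKM in white fat and 0.863 ± 0.118 FPKM in soleus. It was higher in brown fat than in white fat (log2 fold change 1.93 ± 0.07, adjusted p = 3.4e-09). Acat2 stayed below 1 FPKM in soleus and so entered the test through the fats, where it is higher. Of the 5 genes listed, 2 were tested, Aacs and Acat2, and both were higher in each fat than in soleus and higher in brown fat than in white fat. Of all genes, 38.0% were higher in brown fat than in white fat, 52.9% in brown fat than in soleus and 54.5% in white fat than in soleus. In the order brown fat against white fat, brown fat against soleus and white fat against soleus, the medians were 1.21, 5.16 and 3.94, against 0.03, 0.29 and 0.35 for all genes. Hmgcs1 and Oxct2b were listed at 0 in all libraries.

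Other members of the SLC16 family, 10 listed and 5 tested, include carriers of other cargo. In brown fat 4 were lower and 1 was not called against white fat, while 1 was higher, 2 lower and 2 not called against soleus. In white fat 4 were higher and 1 lower than in soleus. Over all genes 34.8% were lower in brown fat than in white fat, and 52.9% were higher and 25.6% lower in brown fat than in soleus. In white fat 54.5% of all genes were higher and 29.7% lower than in soleus. Medians of the family were -1.29, -0.32 and 0.44, against 0.03, 0.29 and 0.35 for all genes. Calls of 2 genes, named after their values were seen, were lost under several settings in white fat against soleus. Slc16a4 (0.44 ± 0.19, adjusted p = 0.049) lost its call under 13 of 21 settings, among them without brown fat library 1, without white fat library 2 and without any 1 soleus library (0.26 to 0.48, adjusted p = 0.057 to 0.19). Slc16a9 (0.34 ± 0.11, adjusted p = 0.015) lost its call or turned under 6 of 21, among them without white fat library 1 or 3 or soleus library 1 (0.25 to 0.30, adjusted p = 0.051 to 0.065). Slc16a4 and Slc16a12, not called in brown fat against soleus, were called without white fat library 2 (0.41, adjusted p = 0.036, and -0.32, adjusted p = 0.0046), and Slc16a4 also without brown fat library 2 (0.59, adjusted p = 0.010). Slc16a12, a creatine carrier, averaged 0.0981 ± 0.0393 FPKM in brown fat, 5.17 ± 2.16 FPKM in white fat and 0.368 ± 0.107 FPKM in soleus. It was lower in brown fat than in white fat (-2.42 ± 0.22, adjusted p = 2.4e-06) and higher in white fat than in soleus (2.11 ± 0.22, adjusted p = 4.6e-06). Slc16a12 reached 1 FPKM in white fat only, and so entered the test through the tissue where it is high. Slc16a6, whose zebrafish counterpart is needed for ketone body export from the liver, averaged 0.171 ± 0.0664 FPKM in brown fat, 1.92 ± 0.614 FPKM in white fat and 3.93 ± 0.845 FPKM in soleus, and was lower in brown fat than in soleus (-2.06 ± 0.16, adjusted p = 4.8e-07). Slc16a6 stayed below 1 FPKM in brown fat and entered the test through the tissues where it is higher. The Slc16a6 call in white fat against soleus (-0.77 ± 0.16, adjusted p = 0.0010) was lost after TPM rescaling (-0.46, adjusted p = 0.064). The opposite-strand gene Amz2 covers 13.5% of the exonic bases of Slc16a6. Slc16a10, an aromatic amino acid carrier and the most abundant of the 5, averaged 6.61 ± 0.652 FPKM in brown fat, 8.65 ± 0.971 FPKM in white fat and 4.85 ± 0.0853 FPKM in soleus. It was higher in brown fat than in soleus (0.38 ± 0.09, adjusted p = 0.0030), a call lost under 3 other scalings, with 0.03 as the lowest value. Mesothelial markers (Upk3b, Msln, Wt1) summed to 0.00873 to 0.0406 FPKM in brown fat, 50.7 to 78.0 FPKM in white fat and 0.245 to 1.68 FPKM in soleus. They were highest in white fat, as were Slc16a12 and the macrophage markers, and their part in its level was not tested.

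The other glycoprotein partners of monocarboxylate carriers differed from Bsg in where they were high. Emb encodes embigin, a partner of MCT2. It averaged 0.488 ± 0.0283 FPKM in brown fat, 4.65 ± 0.958 FPKM in white fat and 0.415 ± 0.190 FPKM in soleus. White fat was the high tissue (log2 fold change -1.91 ± 0.13, adjusted p = 1.8e-07 for brown fat against white fat, and 1.99 ± 0.13, adjusted p = 6.6e-08 for white fat against soleus). Emb reached 1 FPKM in white fat only and so entered the test through the tissue where it is high. An opposite-strand gene, Gm17509, covers 23.5% of the exonic bases of Emb. Nptn, neuroplastin, averaged 44.0 ± 2.76 FPKM in brown fat, 58.9 ± 2.21 FPKM in white fat and 24.2 ± 0.835 FPKM in soleus, and was higher in brown fat than in soleus (0.84 ± 0.07, adjusted p = 1.2e-06). Of 4 genes in this list, with the sodium-coupled carriers, 2 were tested: both were lower in brown fat than in white fat, 1 was higher and 1 not called in brown fat against soleus, and both were higher in white fat than in soleus (medians -1.16, 0.46 and 1.62, against 0.03, 0.29 and 0.35 for all genes). All-gene shares were 34.8% lower, 52.9% higher and 54.5% higher in these comparisons. Slc5a12 was listed at 0 in all libraries.

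The tested receptors of lactate and ketone bodies were called higher in both fats than in soleus. Hcar1, the lactate receptor that restrains lipolysis, averaged 28.8 ± 6.09 FPKM in brown fat, 37.9 ± 13.0 FPKM in white fat and 0.490 ± 0.520 FPKM in soleus. It was higher in brown fat than in soleus (log2 fold change 4.36 ± 0.27, adjusted p = 6.2e-08) and in white fat than in soleus (4.71 ± 0.27, adjusted p = 2.6e-08), and was not called between the fats (-0.35, 95% interval -0.94 to 0.24, adjusted p = 0.25), though after TPM rescaling it was lower in brown fat (-0.95, adjusted p = 0.049). Soleus library 1, with the most adipocyte marker RNA of the soleus libraries, had 1.08 FPKM of Hcar1 and libraries 2 and 3 had 0.263 and 0.123 FPKM. Ffar2, a short-chain fatty acid receptor, averaged 0.927 ± 0.340 FPKM in brown fat and 18.9 ± 2.38 FPKM in white fat (-3.37 ± 0.19, adjusted p = 6.1e-08), with 0.386 ± 0.409 FPKM in soleus. Ffar2 reached 1 FPKM only in white fat and in brown fat library 1, and so entered the test through white fat, where it is high. Of the 4 receptors listed, 3 were tested: 2 were lower and 1 not called in brown fat against white fat, and all 3 were higher in each fat than in soleus (medians -0.50, 2.75 and 3.87, against 0.03, 0.29 and 0.35 for all genes). With 52.9% of all genes called higher in brown fat and 54.5% in white fat than in soleus, and 34.8% lower in brown fat than in white fat, these counts say little by themselves. The call of Ffar2 in brown fat against soleus (0.50 ± 0.19, adjusted p = 0.034) was lost under 8 of 22 settings, among them without brown fat library 1 or 3 and without soleus library 2 or 3 (0.36 to 0.48, adjusted p = 0.083 to 0.14).

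Among known regulators of these genes, 4 of 5 were tested. In brown fat 2 were higher, 1 lower and 1 not called against white fat, and 2 were higher and 2 not called against soleus. In white fat 2 were higher and 2 lower than in soleus, with medians of 1.44, 0.84 and -0.39 over the 3 comparisons, against 0.03, 0.29 and 0.35 for all genes. The shares of all genes were 38.0% higher and 34.8% lower, 52.9% higher, and 54.5% higher and 29.7% lower. Without brown fat library 2, Ppargc1a was called higher in brown fat than in soleus (0.67, adjusted p = 0.012), as was Myc without brown fat library 1 (0.44, adjusted p = 0.033). Hif1a, not called between the fats (-0.05 ± 0.08, adjusted p = 0.64), was lower in brown fat after TPM rescaling (-0.63, adjusted p = 2.7e-04). Ppara, the fatty acid receptor that drives ketone body genes in liver, stood apart in brown fat, at 83.3 ± 3.64 FPKM, with 1.46 ± 0.189 FPKM in white fat and 8.43 ± 1.38 FPKM in soleus. It was higher in brown fat than in white fat (log2 fold change 5.10 ± 0.10, adjusted p = 2.1e-10) and than in soleus (3.17 ± 0.10, adjusted p = 4.6e-10). Ppargc1a, the coactivator of oxidative metabolism, averaged 13.9 ± 6.13 FPKM in brown fat, 0.856 ± 0.0767 FPKM in white fat and 9.73 ± 1.86 FPKM in soleus, and was lower in white fat than in soleus (-2.52 ± 0.24, adjusted p = 1.8e-06). Ppargc1a stayed below 1 FPKM in white fat and entered the test through the tissues where it is higher. Hif1a, the oxygen-sensitive factor that acts on Slc16a3 and Ldha, averaged 14.2 ± 0.930 FPKM in brown fat, 14.7 ± 0.183 FPKM in white fat and 5.30 ± 0.640 FPKM in soleus. Hif1a was higher in white fat than in soleus (1.32 ± 0.08, adjusted p = 7.4e-08). Myc averaged 1.62 ± 0.668 FPKM in brown fat and 3.905 ± 0.940 FPKM in white fat (-0.92 ± 0.19, adjusted p = 0.0014).

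**Figure D5:**
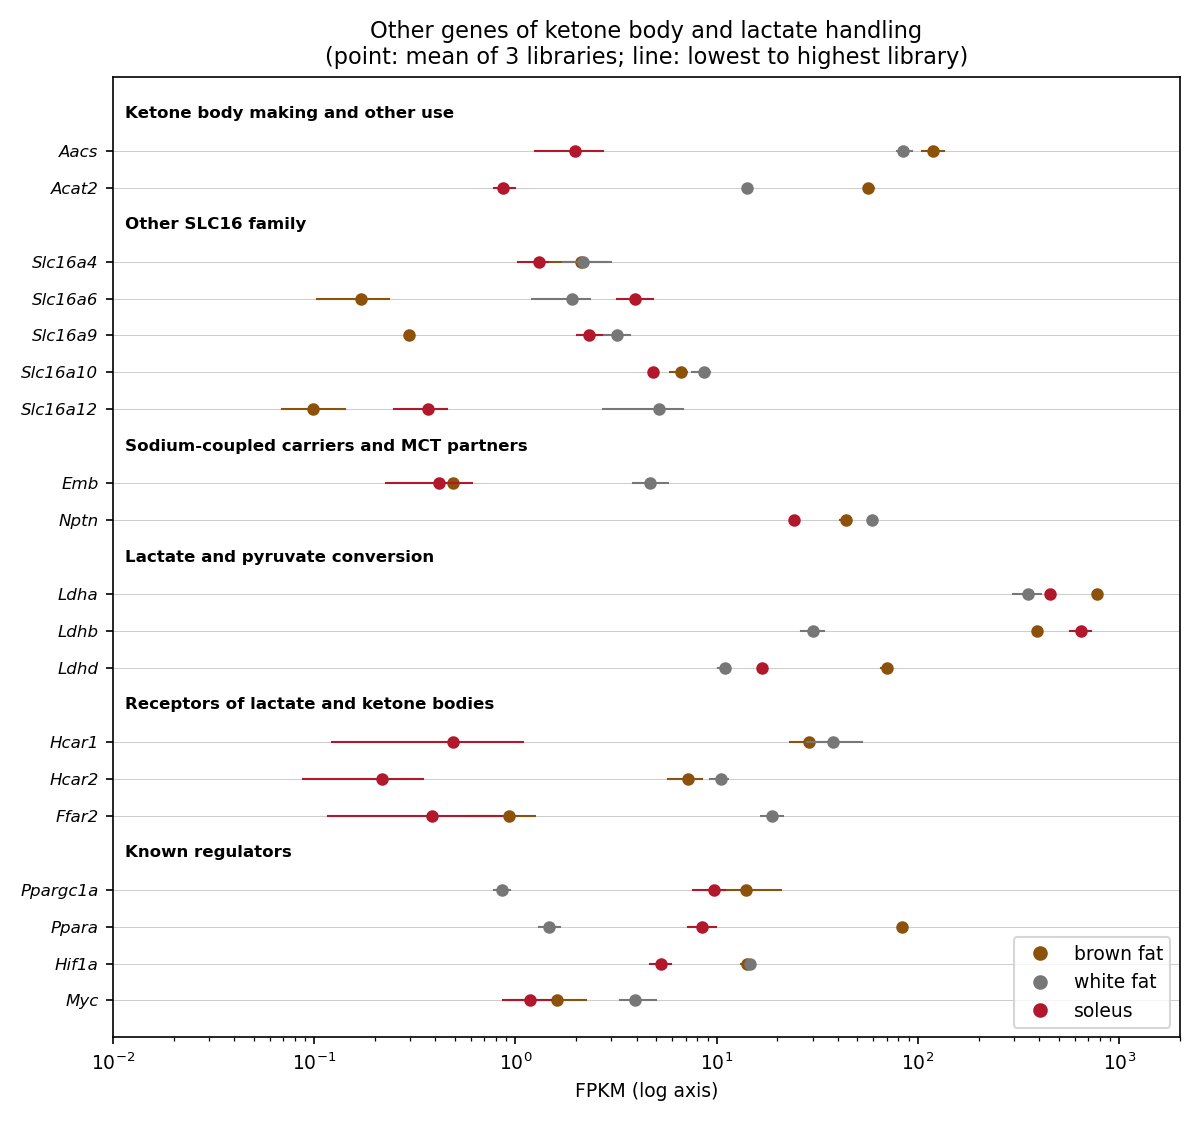
FPKM (log axis) of other tested genes of ketone body and lactate handling by list; points are means of 3 libraries in brown fat, white fat and soleus, and lines run from the lowest to the highest library. Aacs and Acat2 lie far lower in soleus than in either fat, Emb and Ffar2 lie highest in white fat, Ppara lies highest in brown fat and Ldhb lies lowest in white fat.

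The genes most like each measured gene were taken by the root mean square difference of log2(FPKM + 1), centred on each gene's mean, over the 9 libraries. For Slc16a1 the nearest were Xrcc6, which encodes a subunit of the Ku DNA-end binding complex, and Ldhd (both 0.13), then Dld, the dihydrolipoyl dehydrogenase of the pyruvate dehydrogenase complex (0.16). For Bdh1 they were Fzd9 (0.08), a Wnt receptor listed at 0 in both fats, the muscle caveolin Cav3 (0.10) and Vgll2 (0.15). For Oxct1 they were Dyrk1a (0.08), Zfp775 (0.09) and Ubr3 (0.10), and for Bdh2 they were Adgrd1 (0.10), Selenom and Krt80 (both 0.11). For Slc16a3 they were Lrrn1 (0.13), Pfn2 (0.15) and Ttc9 (0.17). For Slc16a7 they were Edem1 (0.06), Epb41l1 (0.08) and Tmem106a (0.12), and for Bsg they were Slc35f5 (0.06), Psmc4 and Denr (both 0.08). Libraries of 1 tissue lie close together, so likeness here is mostly likeness over 3 tissue levels. Differences of genes with low values are understated on this scale, so likeness need not hold for ratios of FPKM. Bdh2 averaged 0.192, 1.82 and 1.07 FPKM in brown fat, white fat and soleus, and Adgrd1 averaged 18.9, 41.3 and 29.7 FPKM.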

How the data were processed

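RNA-seq of brown fat, white fat and soleus was deposited by the authors as 1 matrix of FPKM values with 18401 rows named by RefSeq accessions. Per the labels' protocols, RNA was extracted with TRIzol and libraries were made with an Illumina kit. Per the submitters' processing notes, TopHat 1.4.1, Cufflinks 2.0.1 and the build mm9 were used. FPKM is relative to the mapped total, so very abundant transcripts lower all others.

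From these values, 18305 rows were named through a RefSeq gene table and 38 through GENCODE. Rows of 1 symbol were summed, and 55 rows without a symbol and 3 with several were left out, giving 17753 genes. A gene had to reach 1 FPKM in 3 or more libraries, which left 9913. A gene below 1 FPKM in every library of a tissue thus entered only through tissues where it is higher. limma 3.58.1 (R 4.3.3) was fitted to log2(FPKM + 1) of all 9 libraries with a variance trend, leaving 6 residual degrees of freedom. P-values were adjusted by Benjamini-Hochberg over all genes tested in each comparison. A prior run on simulated data with known changes tested the script. Within-library shares were compared by exact permutation tests adjusted over 12 tests. Relative depth was read from the most frequent ratio between libraries among values up to 0.3 FPKM, and 34 of 36 pairs lay within 0.03 log2 units of 1 chain of depths. No counts were tested. An exact 0 can be a failed estimate, so such a gene is only called listed at 0.

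The genes, lists and tests were chosen with earlier results of these data known. Every gene of the set was named, with Ldha and Ldhb. From each list the text names the called gene with the largest fold change per direction and comparison and the gene with the highest mean, and gives the 3 nearest genes of each measured gene. The lists' genes Esrra, Mpc1, Mpc2 and Slc16a13 and some markers are not analysed here, and some further results are not reported here. Exon overlaps came from GENCODE M21. Alternatives covered the pseudocount, the filter, 4 scalings, the model and each library left out, 22 settings in all.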

Additional observations from a re-analysis of the deposited data

How the results depend on the processing

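Of 459 recomputed fold changes of the 7 genes, 444 kept their direction and their side of the threshold, and leaving out any 1 library changed none of the 21 calls. The same-numbered libraries deviated together no more than others (correlation -0.22 to 0.08 over 9 pairs, against -0.19 to 0.36 over 18 others), so the numbers were not used to pair libraries, and whether they mark a shared mouse is unknown. A replicate block changed no call among the 7 genes, with Slc16a1 at 2.73 in brown fat against white fat (adjusted p = 2.3e-07), and gave 3643 genes higher and 3374 lower in that comparison. With a pseudocount of 0.1, Bdh1 was -0.55 between the fats. A minimum of 5 FPKM gave 2062 genes lower in brown fat than in white fat, 3511 higher in white fat than in soleus and 1 of the 7 genes higher there, since fewer genes, and not Bdh2, were tested. TPM rescaling gave 1795 genes higher and 6133 lower in brown fat than in white fat, with 1 of the 7 higher, Bdh1 at -0.32, Bsg at 0.03 and Oxct1 at -0.19. In white fat against soleus it gave 1869 genes lower, 3 of the 7 lower, Bsg at 0.03 and Slc16a1 at -0.16. Upper quartile scaling gave Bsg -0.29 in brown fat against soleus and, in white fat against soleus, Bdh2 0.29 with 1 of the 7 higher. Median of ratios scaling gave 3867 genes lower and Bsg -0.32 in brown fat against soleus and, in white fat against soleus, Bdh2 0.18 with 1 of the 7 higher. Quantile normalization gave 1 of the 7 higher, Bsg -0.24, Oxct1 -0.04, an Ldhb share higher by 27.6 percentage points and a log2 ratio of Bsg to carriers of -2.22 in brown fat minus white fat. It gave Bsg -0.10 in brown fat against soleus, and Bdh2 0.06, Bsg 0.14, 1 of the 7 higher and a ratio difference of 1.03 in white fat against soleus. Apart from the 5 FPKM minimum, the cause was not tested. The ratio of Oxct1 to Acat1 was not run. Depth is known only in relative terms, which limits Bdh1 in the fats and Slc16a7 in soleus.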
